A study of Mus musculus with 11 samples.

Results

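The transcripts described here are 10 genes of tissue macrophages, among them the 3 chains of complement C1q, measured in the terminal ileum of SKG and BALBc mice. They were chosen by name: C1QA, C1QB, C1QC, CSF1R, EMR1 (the older name of Adgre1), CD68, CX3CR1, MRC1, MS4A7 and CLEC7A, spelled as on the array. Together they had 15 of the 25697 probes on the Illumina MouseRef-8 bead array, and every gene had at least 1. Of the 15 probes, 11 gave a signal above background (detection p under 0.05 against negative control beads) on at least 3 arrays and were tested, so each gene was tested with at least 1 probe.

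SKG mice are on the BALB/c background and have a germline missense mutation of Zap70, which codes for a kinase that the T cell receptor signals through, in every cell that expresses the gene. The series concerns the role of that signal in intestinal inflammation. The mice were naive and 8 to 12 weeks old. The arrays compared here were those of 5 SKG mice (replicates 4 to 8, all batch 3) and 3 BALBc mice (replicates 1 and 2 in batch 2, replicate 3 in batch 3), with 1 array of bulk tissue RNA per mouse. Batch is the submitters' own label and its nature is not given in the labels. The series also holds 3 SKG arrays of batch 1. They were not used because signals and probe names did not match row for row: over all probes they had rank correlations of 0.0768 to 0.0966 with the 8 arrays used, which had 0.838 to 0.947 among themselves.

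Macrophages of the intestinal wall arise largely from blood monocytes and depend on signals through the CSF1 receptor. They take up dying cells and microbes, and resident ones carry the fractalkine receptor CX3CR1. C1q is the recognition molecule of the classical complement pathway. It is assembled from A, B and C chains, binds antibody complexes and dying cells, and activates the proteases C1r and C1s. Most complement proteins come from the liver, but C1q is made mainly by tissue macrophages, which is why its 3 genes serve as macrophage markers.

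On the 8 arrays 12445 to 14076 probes were above background. Median raw signals were 98.5 to 105.6 on the 6 arrays of batch 3 (5 SKG, 1 BALBc) and 187.5 and 163 on the BALBc arrays of batch 2. Because 94.7% of tested probes had a higher raw signal on both batch 2 arrays than on any batch 3 array, only normalised values were compared between batches. SKG replicate 6 differed from the other SKG arrays by a median of 0.448 on the log2 scale per probe, against 0.222 to 0.229 for the other 4. The enterocyte genes that check the tissue label were measured with 5 of 7 markers, while FABP2 and SLC10A2 were above background on no array.

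All values below are normalised log2 signals unless raw signal is named. Differences are SKG minus BALBc and come from limma with batch as a random block, so that the BALBc mouse sharing a batch with the SKG mice weighs more than the plain means give it. Adjusted p is over all 13775 tested probes. Levels of different probes cannot be set against each other, only the same probe between mice. In bulk tissue, fewer macrophages, less RNA per macrophage and a different mix of other cells in the sample cannot be told apart.

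None of the 10 genes passed the threshold of an adjusted p under 0.05 in limma (adjusted p 0.133 to 0.65). All 10 fitted differences were nevertheless negative, from −1.51 for CLEC7A to −0.27 for MRC1, with a median of −0.79, while 49% of all tested probes had a negative difference and their median was 0.01. At an unadjusted p under 0.05, 6 of the 10 genes were lower in SKG (C1QA, C1QC, EMR1, CD68, MS4A7 and CLEC7A), against 5.92% of all tested probes. At the adjusted threshold 0.254% of probes were lower and 0.319% higher. The SKG values lay wholly below the BALBc values for EMR1, MS4A7 and CLEC7A, that is 3 of 10 genes against 5.25% of tested probes. Within batch 3, where the comparison is 5 SKG mice with 1 BALBc mouse, 9 of 10 genes were lower in every SKG mouse than in the BALBc mouse, against 21.3% of tested probes. The tenth was CSF1R, and MRC1 was counted by a narrow margin (7.72 in SKG replicate 7, 7.77 in the BALBc mouse). The median difference in batch 3 was −1.0 over the 10 genes and 0.02 over all tested probes. The 10 genes were measured in the same mice, so these counts are not of independent observations. Without BALBc replicate 3, C1QB (0.49) and CD68 (0.24) had the opposite sign and the other genes stayed negative.

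**Figure D1:**
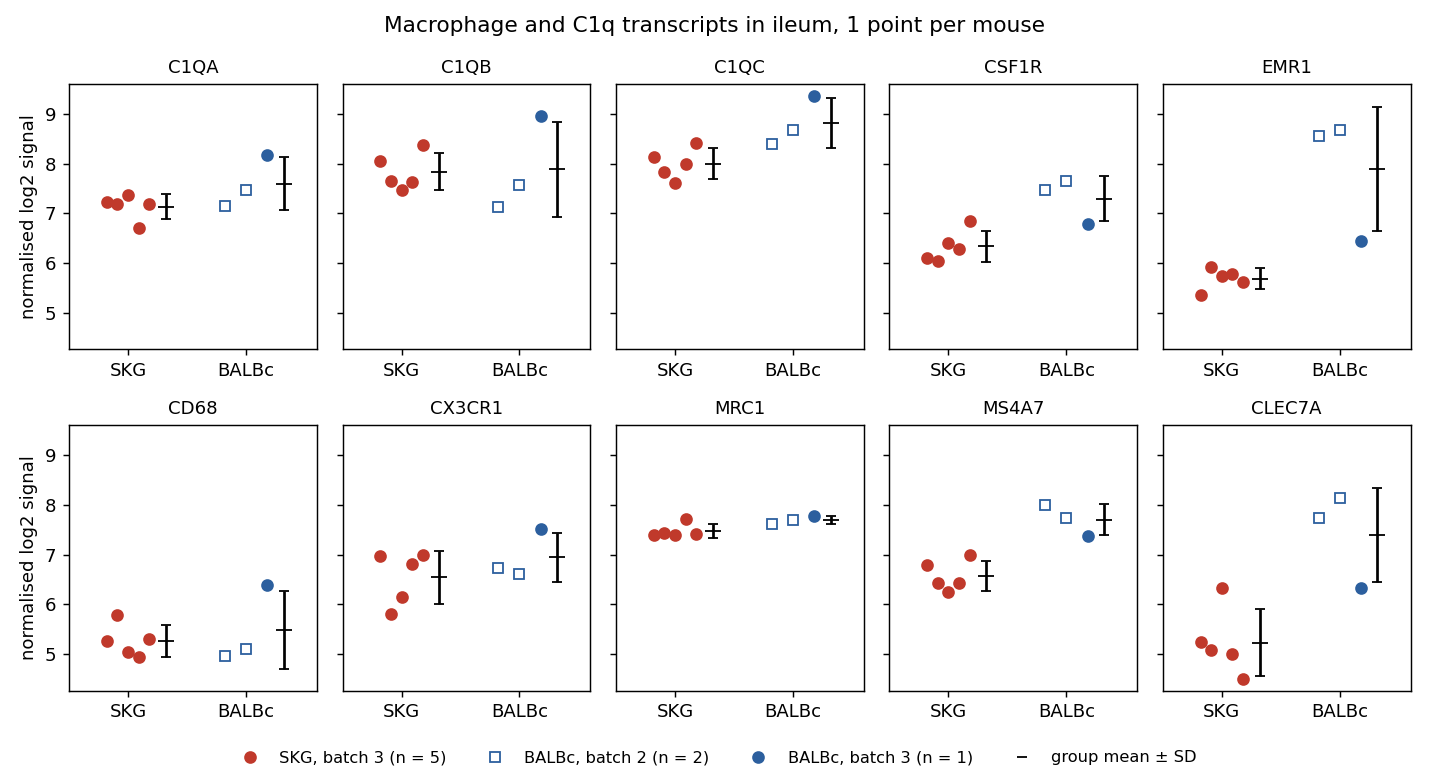
Normalised log2 signal (y axis) of the brightest probe of each of the 10 genes, 1 point per mouse, with SKG left and BALBc right. Filled circles are batch 3, open squares batch 2, and the bars give the group mean ± SD (5 SKG, 3 BALBc). For EMR1, MS4A7 and CLEC7A every SKG point lies below every BALBc point, while for the 3 C1q chains, CD68 and CX3CR1 the highest point is the BALBc mouse of batch 3.

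The 3 C1q chains are described first. In the mouse the genes C1qb, C1qc and C1qa are direct neighbours, in this order, on chromosome 4. Of the 10 genes, 7 had at least 1 of 9 promoter windows in the RefSeq table (build GRCm38.p6, 250 bases before to 50 after the start of transcription), and 2 of these windows belong to C1q. They are shown because the chains are transcribed from neighbouring starts and were measured on the same arrays, and because PU.1, the ETS factor of myeloid cells, is known to bind GAGGAA-type sites. The letters GAGGAA or their reverse complement stand in capitals, read 5′ to 3′ along the gene's strand.
C1qb, chr4:136886151-136886450, minus strand: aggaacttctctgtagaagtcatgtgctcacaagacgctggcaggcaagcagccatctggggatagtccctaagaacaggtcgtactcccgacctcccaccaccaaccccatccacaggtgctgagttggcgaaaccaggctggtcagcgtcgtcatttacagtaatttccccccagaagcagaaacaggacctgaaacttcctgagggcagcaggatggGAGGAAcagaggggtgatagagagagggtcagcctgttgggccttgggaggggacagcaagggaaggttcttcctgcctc
C1qc, chr4:136892865-136893164, minus strand: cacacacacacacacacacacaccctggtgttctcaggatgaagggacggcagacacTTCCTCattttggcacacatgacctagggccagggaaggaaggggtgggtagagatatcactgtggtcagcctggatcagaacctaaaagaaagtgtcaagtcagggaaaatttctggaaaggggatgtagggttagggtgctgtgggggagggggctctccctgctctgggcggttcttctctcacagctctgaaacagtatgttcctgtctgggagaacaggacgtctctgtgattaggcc

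Each window holds 1 match, at position −30 for C1qb and −193 for C1qc, counted from the start of transcription. On either strand, 7 of the 9 windows of these genes hold GAGGAA, as do 28.3% of all 32851 windows in the table. The 7 include 2 overlapping windows of Clec7a, from 129472730 and 129472736, which are not independent. For TGANTCA (the AP-1 motif, which reads the same on both strands) the figures are 2 of 9 windows and 7.81%, for TATAAA 1 of 9 and 13.6%, and for CACGTG 0 of 9 and 7.15%. These matches are descriptions of the letters in the windows.

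C1QA, the A chain, had values of 7.24, 7.19, 7.36, 6.70 and 7.19 in SKG replicates 4 to 8, against 7.14, 7.48 and 8.18 in BALBc replicates 1 to 3. SKG replicate 7 was the lowest mouse, the BALBc mouse of batch 3 was the highest, and BALBc replicate 1 lay within the SKG range. The group values were 7.14 ± 0.25 in SKG (SD, n = 5) and 7.60 ± 0.53 in BALBc (SD, n = 3). The fitted difference was −0.82 (SE 0.29, limma adjusted p = 0.256), and −0.17 without the BALBc mouse of batch 3 (limma adjusted p = 0.577).

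C1QB, the B chain, measured 8.06, 7.65, 7.47, 7.64 and 8.38 in SKG, against 7.13, 7.56 and 8.95 in BALBc. The groups overlapped, since both BALBc mice of batch 2 were within or below the SKG range. Plain group means were 7.84 ± 0.37 in SKG (SD, n = 5) and 7.88 ± 0.95 in BALBc (SD, n = 3), nearly equal, and the fitted difference was −0.70 (SE 0.39, limma adjusted p = 0.479). Against the BALBc mice of batch 2 alone the sign was the opposite, 0.49.

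C1QC, the C chain, gave 8.13, 7.84, 7.60, 7.98 and 8.42 in SKG and 8.38, 8.67 and 9.36 in BALBc. SKG replicate 8 reached just above BALBc replicate 1, and the other SKG mice lay below all BALBc mice. Its difference of −1.15 (SE 0.30, limma adjusted p = 0.133) had the smallest p of the 10 genes and corresponds to a 2.22-fold higher signal in BALBc. Without SKG replicate 6 it was −1.14 and passed (limma adjusted p = 0.0357). That fit called 5.73% of all tested probes. Without BALBc replicate 3 the C1QC difference was −0.53 (limma adjusted p = 0.108).

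Within batch 3 the arrays had similar median raw signals, so raw bead signals are given beside the normalised ones. Raw C1QC signals were 234.9, 217.8, 161.5, 256.8 and 314.9 in SKG replicates 4 to 8, against 491.6 in BALBc replicate 3. The bead standard errors were 4.92 to 10.4 on the SKG arrays and 21.3 on the BALBc array, from 28 to 44 beads. The BALBc signal was thus higher than every SKG signal by more than the bead error, which measures the array and not the animals. A raw BALBc signal above all 5 SKG signals in this batch was found for 8 of the 10 genes and for 25.5% of tested probes. The exceptions were CSF1R (156.3 in SKG replicate 8, 151.8 in BALBc) and MRC1 (223.9 in SKG replicate 7, 219.6 in BALBc).

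Raw C1QA signals were 149.8 to 177.4 in SKG and 264.3 in the BALBc mouse, with bead standard errors of at most 7.15 in SKG and 7.81 in BALBc. Raw C1QB signals were 154.7 to 307.7 in SKG and 389.5 in BALBc, with errors of at most 12.4 in SKG and 9.99 in BALBc. After normalisation the BALBc mouse of this batch was 2.06-fold above the SKG mean for C1QA, 2.17-fold for C1QB and 2.58-fold for C1QC. SKG replicate 6 had the lowest raw SKG signal for all 3 chains, but the highest normalised SKG value for C1QA.

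**Figure D2:**
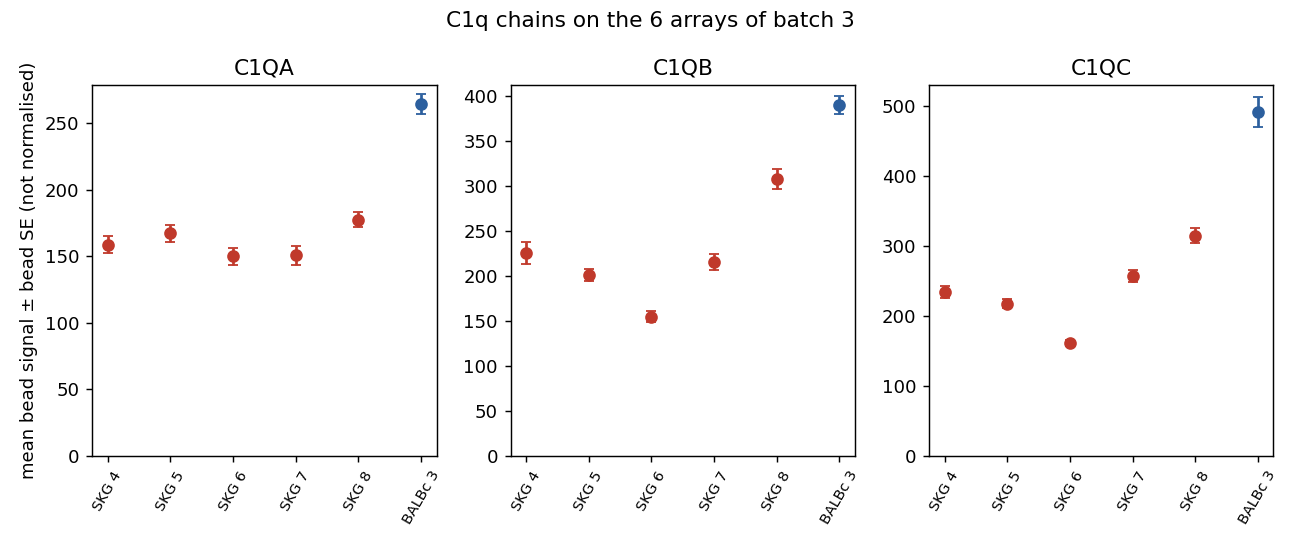
Raw mean bead signal (y axis, not normalised, each panel with its own scale from 0) of C1QA, C1QB and C1QC on the 5 SKG arrays (red) and the BALBc array (blue) of batch 3. Error bars are the bead standard error within an array. The BALBc point, at 264.3, 389.5 and 491.6 in the 3 panels, lies above all SKG points.

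The receptors of growth and positioning signals came next. CSF1R is the receptor for CSF1 and IL-34, on which macrophage survival depends. Its brighter probe gave 6.10, 6.05, 6.41, 6.29 and 6.84 in SKG, against 7.47, 7.64 and 6.78 in BALBc. The BALBc mice of batch 2 stood above all SKG mice, and BALBc replicate 3 was just below SKG replicate 8, so the groups overlapped by these 2 mice. The difference was −0.64 (SE 0.30, limma adjusted p = 0.388) over the 8 arrays and −0.45 within batch 3. The other CSF1R probe was above background on no array.

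CX3CR1, the receptor for fractalkine, measured 6.97, 5.82, 6.16, 6.81 and 7.00 in SKG and 6.73, 6.60 and 7.51 in BALBc. The SKG mice spanned 1.18 on the log2 scale, and the BALBc mice of batch 2 fell inside that span. The difference was −0.74 (SE 0.39, limma adjusted p = 0.458), with −0.96 within batch 3 and −0.12 without BALBc replicate 3 (limma adjusted p = 0.808).

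EMR1, an adhesion G protein-coupled receptor used as a marker of mouse macrophages, showed the widest gap between BALBc mice. Its brightest probe gave 5.37, 5.92, 5.74, 5.79 and 5.62 in SKG, against 8.55, 8.68 and 6.45 in BALBc. No SKG mouse reached a BALBc mouse, but the BALBc mice of batch 2 exceeded BALBc replicate 3 by 2.16 on average. BALBc replicate 3 differed from the SKG mean by less, with −0.77 for SKG minus BALBc within batch 3. The fitted difference was −1.32 (SE 0.40, limma adjusted p = 0.194). A second probe gave 4.99, 5.59, 5.75, 5.93 and 5.61 in SKG and 6.94, 7.06 and 6.24 in BALBc, again without overlap, and differed by −0.86 (SE 0.31, limma adjusted p = 0.263). Between the BALBc batches the second probe differed by 0.76, so the probes of this gene agreed in order and not in size. The third EMR1 probe was above background on no array.

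Among the lysosomal and uptake genes, CD68, a glycoprotein of macrophage lysosomes, was close to background on most arrays. Its values were 5.28, 5.78, 5.05, 4.95 and 5.31 in SKG, against 4.96, 5.11 and 6.39 in BALBc, and its detection p reached 0.041 in SKG. Only BALBc replicate 3 stood apart from the rest. The fitted difference of −0.77 (SE 0.34, limma adjusted p = 0.37) had the opposite sign, 0.24, against the batch 2 mice alone.

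MRC1, the mannose receptor of macrophages and of some endothelium, varied least. It measured 7.39, 7.43, 7.39, 7.72 and 7.42 in SKG and 7.62, 7.69 and 7.77 in BALBc. SKG replicate 7 lay among the BALBc mice and the other 4 below them. The group values were 7.47 ± 0.14 in SKG (SD, n = 5) and 7.70 ± 0.08 in BALBc (SD, n = 3), and the difference was −0.27 (SE 0.22, limma adjusted p = 0.65).

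MS4A7, a membrane protein expressed by macrophages, gave 6.79, 6.43, 6.25, 6.43 and 6.99 in SKG, against 8.00, 7.74 and 7.37 in BALBc with its brighter probe. The groups did not overlap, with 6.58 ± 0.30 in SKG (SD, n = 5) and 7.70 ± 0.31 in BALBc (SD, n = 3). The difference was −0.92 (SE 0.28, limma adjusted p = 0.199) over the 8 arrays and −0.80 within batch 3, and it was the steadiest between the BALBc batches among the genes without overlap. Its other probe was above background on no SKG array and on the 2 BALBc arrays of batch 2. It was not tested, and over all arrays its signal was at least 1.09-fold higher in BALBc, counted against the lowest signals above background on the SKG arrays. This bound rests on the batch 2 mice. Within batch 3 this probe gave 4.29 to 4.46 in SKG and 4.28 in BALBc, all below background.

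CLEC7A is Dectin-1, the receptor of myeloid cells for fungal beta-glucan. Injected beta-glucan is a known trigger of arthritis and ileitis in SKG mice, which these naive animals had not received. CLEC7A measured 5.24, 5.08, 6.33, 5.01 and 4.51 in SKG, against 7.73, 8.14 and 6.34 in BALBc. SKG replicate 6 and BALBc replicate 3 had almost the same value, so the absence of overlap rested on a gap of 0.01, and SKG replicate 8 was not above background. The difference of −1.51 (SE 0.51, limma adjusted p = 0.228) was the largest of the 10 with this processing. Without background correction CLEC7A differed by −0.59, less than C1QC (−0.89) and EMR1 (−0.65), and C1QC was also ahead with 75th percentile scaling (−1.16 for C1QC, −1.13 for CLEC7A) and with batch as a fixed block (−1.37 for C1QC, −1.10 for CLEC7A). Without SKG replicate 6 it was −1.62 and passed (limma adjusted p = 0.0283). The second CLEC7A probe was above background on no array.

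The BALBc mice of the 2 batches differed in a way that split the genes. EMR1, CLEC7A, CSF1R and MS4A7 were higher in the batch 2 mice than in BALBc replicate 3, by 2.16, 1.595, 0.77 and 0.49 on the log2 scale. The C1q chains, CD68, CX3CR1 and MRC1 were lower in the batch 2 mice, by −1.60 for C1QB, −1.35 for CD68, −0.87 for C1QA, −0.84 for CX3CR1, −0.83 for C1QC and −0.12 for MRC1. A batch 2 mean more than 1 above BALBc replicate 3 was found for 2 of the 10 genes and for 13.2% of tested probes. In this strain, batch and animal cannot be told apart.

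The result without 1 mouse depended on which BALBc mouse was left out. Without BALBc replicate 3 strain and batch cannot be told apart, and 37.8% of all tested probes were called. In that fit CSF1R (−1.22), EMR1 (−2.93), MS4A7 (−1.29) and CLEC7A (−2.70) were below the threshold (limma adjusted p = 0.00315, 1.11e-05, 0.00217 and 0.000697), while C1QB (0.49) and CD68 (0.24) had the opposite sign. Without BALBc replicate 1 or 2, or any SKG mouse other than replicate 6, no gene passed and all 10 differences stayed negative. Batch 3 alone gave differences from −1.37 for C1QC to −0.30 for MRC1, none past the threshold in limma (smallest adjusted p = 0.158). That fit has 1 BALBc mouse, which is assumed to vary like the SKG mice, so its p-values contain no spread between BALBc mice.

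**Figure D3:**
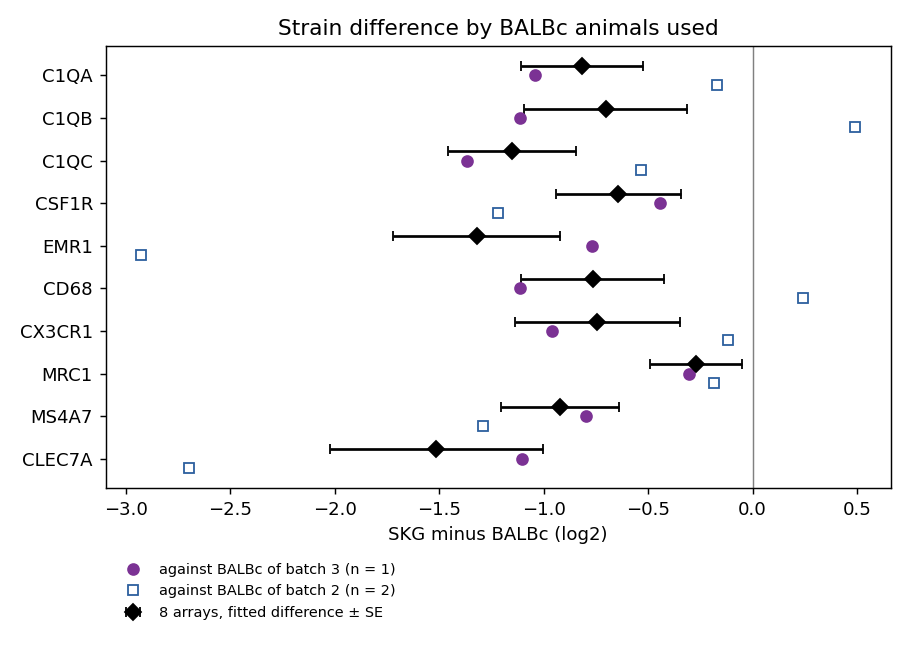
SKG minus BALBc on the log2 scale (x axis) for each gene (rows). Black diamonds are the fitted difference over 8 arrays ± SE, purple circles the SKG mean minus the 1 BALBc mouse of batch 3, and open squares the SKG mean minus the mean of the 2 BALBc mice of batch 2. The circles are all negative, while the squares range from −2.93 (EMR1) to 0.49 (C1QB).

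Among the SKG mice no animal was low or high throughout. Averaged over the 10 genes, the SKG arrays deviated from the SKG mean by 0.05, −0.09, −0.03, −0.08 and 0.16 for replicates 4 to 8. BALBc replicates 1 to 3 stood 0.76, 0.92 and 0.90 above that mean, but different genes made up these averages. BALBc replicate 1 had 8.55 for EMR1 and 7.13 for C1QB, against SKG means of 5.69 and 7.84. In BALBc replicate 3 these genes measured 6.45 and 8.95. SKG replicate 8 was the highest SKG mouse for 5 of the 10 genes and the lowest for 1. SKG replicate 6, which stood apart over all probes, was the lowest for 3 and the highest for 2.

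Genes with the most similar pattern over the 8 mice were sought by the root mean square difference between gene-centred log2 profiles, among 8303 other genes above background on all 8 arrays. The mean C1q profile was nearest to SERPING1, the inhibitor of C1r and C1s, with a difference of 0.058. It was followed by IFITM3 (0.072), NGFRAP1 (0.134), NID1 (0.146) and COL6A1 (0.152). The median over all these genes was 0.569, and a flat profile would give 0.427. The chains themselves lay at 0.211 for C1QA, 0.262 for C1QB and 0.226 for C1QC, below both of these values. The 5 genes were picked as the smallest of 8303 differences. That they lay nearer than the chains therefore does not show that the chains differ from each other. SERPING1 measured 9.82, 9.62, 9.48, 9.56 and 9.94 in SKG, against 9.68, 9.95 and 10.89 in BALBc, so that it too was highest in BALBc replicate 3.

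Of the 7 genes other than the C1q chains, CD68 (0.286) and CX3CR1 (0.339) were nearest to the mean C1q profile and EMR1 (1.30) farthest. The EMR1 profile was nearest to IRF8, a transcription factor of myeloid and B cells (0.160), and then to TSN (0.173), BCKDHB (0.180), LOC621823 (0.198) and RPS3A (0.200). Of the 10 genes CLEC7A was closest to EMR1 (0.516). All 5 of these neighbours were highest in the 2 BALBc mice of batch 2, as IRF8 was, with 8.24 to 8.90 in SKG, against 11.35, 11.15 and 9.41 in BALBc replicates 1 to 3.

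The other genes of the pathway were taken from lists that leave out the 10. None of the 52 measured genes in these lists passed in limma. By fitted difference 39 were negative and 13 positive, with a median of −0.41, and 11 were lower and 2 higher at an unadjusted p under 0.05, against 5.92% lower and 7.42% higher of all tested probes. In the list of the C1 complex and classical pathway 4 of 5 measured genes were negative (median −0.93, and −1.20 within batch 3). SERPING1 differed by −0.93 (SE 0.29, limma adjusted p = 0.199) and C3, the central component, by −1.38 (SE 0.43, limma adjusted p = 0.204). The protease C1S, above background in 2 SKG mice and 1 BALBc mouse, had a positive value of 0.20 (SE 0.35).

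Of the alternative pathway genes and regulators 6 of 8 were negative, with a median of −0.51 over the 8 arrays and −0.24 within batch 3. The smallest p-values were those of CD93, a surface protein of endothelium and myeloid cells (−1.02, SE 0.33, limma adjusted p = 0.213), and CD55, which speeds the decay of complement convertases (0.94, SE 0.45, limma adjusted p = 0.396). CD55 measured 7.78 to 8.62 in SKG, against 9.05 and 9.09 in the BALBc mice of batch 2 and 6.73 in BALBc replicate 3, so the SKG mice lay between the BALBc mice.

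For the complement and C1q related receptors 3 of 4 were negative (median −0.31), and the sign of the median was positive within batch 3 (0.23). Their smallest p-values were those of CALR (−0.76, SE 0.81, limma adjusted p = 0.736) and ITGB2 (0.21, SE 0.24, limma adjusted p = 0.758). In the list of ligands and monocyte entry 3 genes were measured, with a median of 0.11. CX3CL1, the ligand of CX3CR1, measured 9.55 ± 0.09 in SKG (SD, n = 5) and 9.32 ± 0.44 in BALBc (SD, n = 3), a difference of 0.53 (SE 0.24, limma adjusted p = 0.374). CSF1, a ligand of CSF1R, differed by −0.32 (SE 0.31, limma adjusted p = 0.711).

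Among the other macrophage genes 18 of 23 were negative (median −0.47, and −0.71 within batch 3). APOE, the lipid carrier abundant in macrophages, came closest to the threshold. It measured 8.48, 8.66, 8.60, 8.01 and 9.02 in SKG, against 9.14, 9.85 and 10.31 in BALBc, without overlap, and differed by −1.55 (SE 0.35, limma adjusted p = 0.0892). MERTK, a receptor for the uptake of dying cells, had the opposite sign, with 8.76 to 9.77 in SKG against 8.02 to 8.44 in BALBc and a difference of 1.04 (SE 0.32, limma adjusted p = 0.197). Of the macrophage lectins and Fc receptors 7 of 9 were negative (median −0.36, and −0.55 within batch 3). The inhibitory receptor SIRPA differed by −1.43 (SE 0.36, limma adjusted p = 0.111) and the Fc receptor FCGR4 by −1.41 (SE 0.47, limma adjusted p = 0.228).

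No marker of another cell type passed the threshold in limma, and the summed levels of several lists overlapped between the strains. Summed over the genes of a list as normalised signal, the 10 macrophage genes gave 1104 to 1472 in SKG and 1967 to 2371 in BALBc. Pan-leukocyte markers (4 of 5 measured) gave 1280 to 3413 in SKG and 2607 to 6807 in BALBc, and PTPRC was above background on 2 BALBc arrays and no SKG array. T cell markers (5 of 6) gave 235.1 to 504.5 in SKG and 534.8 to 1296 in BALBc. Fibroblast markers (6 of 6) gave 4303 to 6397 in SKG and 8366 to 15910 in BALBc, and smooth muscle markers (6 of 6) 19770 to 27950 in SKG and 21850 to 36690 in BALBc. Plasma cell markers (4 of 5) gave 3592 to 5315 in SKG and 4670 to 7267 in BALBc. That sum is mostly the signal of XBP1 (11.77 to 12.32 in SKG, 12.06 to 12.73 in BALBc). Taken singly, 2 of the 4 plasma cell genes, IGJ and TNFRSF17, were lower in every SKG mouse than in any BALBc mouse, against 5.25% of tested probes. B cell markers (3 of 6) gave 272.4 to 970.6 in SKG and 192.4 to 973.3 in BALBc. Red blood cell markers (3 of 3) gave 707.1 to 2991 in SKG and 505.2 to 5020 in BALBc, and markers of enteric glia and neurons (3 of 6) 218.5 to 431.2 in SKG and 247 to 435.2 in BALBc. Lymph vessel markers (3 of 4) gave 101.8 to 141.8 in SKG and 147.3 to 307.1 in BALBc. Ileal enterocyte markers gave 41820 to 48060 in SKG and 34370 to 45670 in BALBc. Of these marker sums, those of T cell, fibroblast and lymph vessel markers did not overlap between the strains, and the other marker sums given here did. Taken singly, 3 of 5 T cell, 3 of 6 fibroblast and 1 of 3 lymph vessel genes were without overlap. The fibroblast sum is mostly the signal of DCN (11.42 to 12.22 in SKG, 12.46 to 13.53 in BALBc). The lymph vessel gene was LYVE1 (5.53 to 5.77 in SKG, 5.95 to 7.99 in BALBc), which is also in the list of other macrophage genes. PROX1 and FLT4 overlapped.

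Within batch 3 every SKG mouse was below the BALBc mouse for 4 of 4 pan-leukocyte, 5 of 5 T cell and 6 of 6 smooth muscle markers. The same held for 5 of 6 fibroblast, 3 of 4 plasma cell and 2 of 4 blood vessel markers. It held for 2 of 3 lymph vessel and 2 of 3 glial and neuronal markers. For B cell and red blood cell markers it was 1 of 3 each, for Paneth cell markers 0 of 4 and for enterocyte markers 0 of 5. Of all tested probes 21.3% had this order. The medians in that batch were −1.72 for pan-leukocyte, −1.59 for T cell, −1.40 for plasma cell and −0.90 for red blood cell markers. They were −0.81 for smooth muscle, −0.77 for B cell, −0.70 for fibroblast and −0.59 for glial and neuronal markers. Blood vessel markers had −0.47, lymph vessel markers −0.27 and Paneth cell markers 0.18. The medians were −1.0 for the 10 macrophage genes and −0.03 for enterocyte markers. For dendritic cells 1 of 7 markers was measured, and for granulocytes and mast cells 2 of 8, so these cells were hardly covered. The part of these other cell types in the macrophage values was not tested.

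**Figure D4:**
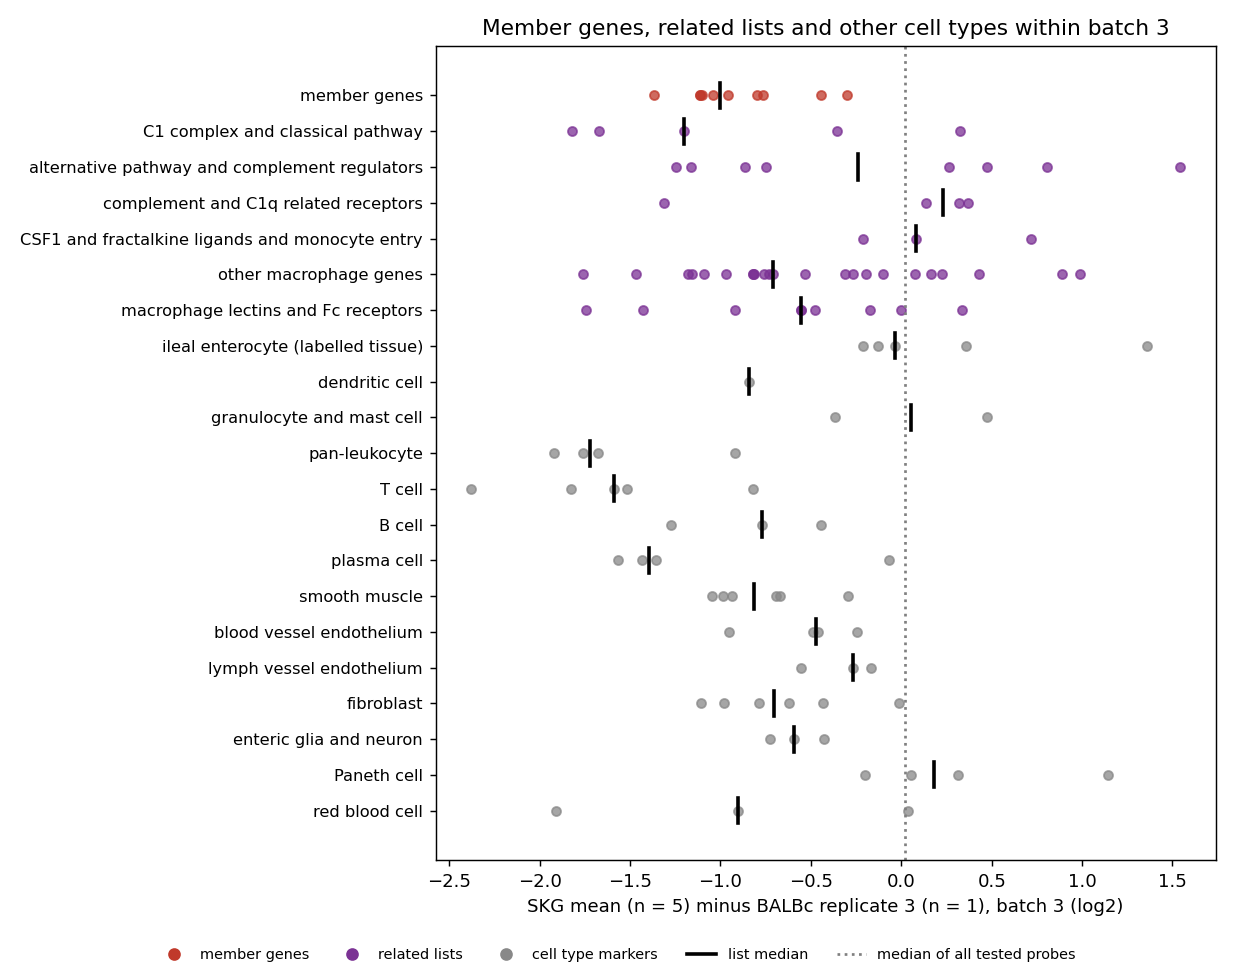
Difference within batch 3 on the log2 scale (x axis, SKG mean of 5 mice minus the 1 BALBc mouse) for the 10 macrophage genes (red), related gene lists (purple) and markers of other cell types (grey), 1 point per gene. Black lines are list medians and the dotted line is the median of all tested probes (0.02). The macrophage genes (median −1.0) lie left of the dotted line together with leukocyte, T cell and stromal markers, and the enterocyte median (−0.03) lies near it.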

How the data were processed

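Total RNA of terminal ileum was hybridised to 1-colour bead arrays. Per the file headers, the authors exported the mean bead signal, an intensity, from GenomeStudio 1.9.0 without normalisation. The deposited detection value is a fraction (1 − detection p). The deposited bead SD and bead number of a probe gave its bead standard error. The deposited table of log2 values, whose centring stays unknown, served as an alternative only. No column of another series was found (0).

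Here the 8 arrays of batches 2 and 3 were corrected with normexp from detection p (offset 16), quantile normalised and log2 transformed. The 13775 probes detected at p under 0.05 on 3 or more arrays were tested. SKG was compared with BALBc in limma 3.58.1 (R 4.3.3, statmod 1.5.0), two-sided, with batch as a random block (consensus correlation 0.545) and Benjamini-Hochberg adjustment. A gene is given by its brightest kept probe (highest mean over the 8 arrays), beside its other probes. In each related list the 2 genes with the smallest p were named, plus any past the threshold (none). The 5 genes nearest to the C1q mean and to EMR1 in profile were named, and C1S was named after its values were seen. The members, lists and rules were chosen with earlier results of these data known. The fit was tested on simulated data with 50 changed probes at each size of change. It recovered 49 at a log2 change of −3, 35 at −2, 18 at −1 and 4 at 1, with 7 false calls. Changes of 1 on the log2 scale were thus mostly missed, so a gene that did not pass is not shown to be unchanged. Alternatives of background correction, scaling, filter, batch term, array weights and left-out mice are in the closing section. The labels give each sample as a separate mouse. The number of arrays limits the precision.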

Additional observations from a re-analysis of the deposited data

Results flagged for a closer look

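Within the 5 SKG mice, 2 of the 10 genes had a mouse far from the others by Dixon's criterion, which chance gives for about 1 group in 20. Both concerned SKG replicate 7, in opposite directions. Its C1QA value of 6.705 was the lowest, with a gap to the next mouse of 0.737 of the group's range. Its MRC1 value of 7.723 was the highest, with a gap of 0.874 of the range. The cause was not tested.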

How the results depend on the processing

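With 3 BALBc mice, and 1 of them in the batch of the SKG mice, the number of arrays limits every value here, and CD68 and CLEC7A in SKG lay close to background. No gene of the 10 was higher in SKG past the threshold under any of the 19 alternatives. The number lower past it was 0 in the reported fit and in 15 alternatives, 3 with no batch term (EMR1, MS4A7 and CLEC7A), 5 with array weights, and 0 to 4 when 1 mouse was left out. Array weights called 58.5% of probes, and with them C1QB (0.39) and CD68 (0.23) had the opposite sign, as they did without BALBc replicate 3 (0.49 and 0.24). The authors' deposited table holds the brightest probe of 5 of the 10 genes. With its values MRC1 had the opposite sign (0.0363). CX3CR1 (−0.51), MS4A7 (−0.29), CSF1R (−0.22) and CD68 (−0.25) differed by less than in the reported fit. Their adjusted p in limma, over 5045 probes, was 0.135, 0.283, 0.382 and 0.187 in this order. In the reported fit it was 0.458, 0.199, 0.388 and 0.37. Leaving out 1 mouse gave −0.83 to 0.49 for C1QB and −0.88 to 0.24 for CD68. The cause of these reversals was not tested.

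The counts of probes (44 higher, 35 lower) were 102 higher with 75th percentile scaling, 26 higher with cyclic loess, 81 higher without a detection filter, 29 higher with batch as a fixed block, and 428 higher and 273 lower with no batch term. They were 6 higher in batch 3 alone, 20 higher in batch 3 normalised without batch 2 (chosen after seeing the data), 4805 higher and 3250 lower with array weights, and 10 higher and 65 lower in the deposited table. Leaving out 1 mouse gave 8 to 2953 higher and 21 to 2256 lower. Of all calls 55.7% were higher, against 69.4% with 75th percentile scaling and 38.2% with cyclic loess. The 75th percentile scaling moved the median of all probes by 0.15, and the 10 genes then had a median of −0.99 relative to that of all probes. No paired analysis was possible because the SKG and BALBc arrays used share no replicate number.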
